A study of Rattus norvegicus with 52 samples.

Results

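Solute carriers are the membrane proteins that move amino acids, sugars, metals, ions, nucleotides and vitamins across the plasma membrane and the membranes of organelles. The set described here held every gene whose symbol starts with Slc and that reached a CPM (reads of the gene scaled to the library's total in genes) of 5 or more in at least 4 of the 16 libraries of 9-week-old rats. It had 179 members out of 355 rows starting with Slc, in a table of 17356 genes. The members were thus chosen by their levels in the 9-week libraries, so the values of those libraries are given as a description, and the tests rest on the libraries of 4-week-old and 6-week-old rats and of rats given 17beta-estradiol (E2), which the rule did not use.

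RNA was sequenced from sorted mammary epithelial cells of female ACI rats, an inbred strain susceptible to E2-induced mammary tumours, that were wild type (Cdkn1b+/+) or knockout (Cdkn1b-/-) for the gene of the cell cycle inhibitor p27. The knockout alleles were frameshift deletions of 32 bp (DEL-32) and 65 bp (DEL-65) in exon 2, made in Sprague-Dawley zygotes and crossed onto ACI, both lines gave rats of both genotypes in equal measure, and wild-type and Cdkn1b-/- rats came from heterozygous crosses. The paper sorted cells from rats of an early and a late backcross generation. The labels do not say which library came from which, so libraries may differ in their remaining Sprague-Dawley share. At 9 weeks each genotype had 2 libraries of basal cells (Cd24+ Cd29HIGH), 2 of Cd49b+ and 2 of PNA+ luminal progenitors (Cd24+ Cd29LOW), and 2 of mature luminal cells (Cd24+ Cd29LOW Cd49b- PNA-). The Cd49b+ and PNA+ libraries were pooled in the fit as luminal progenitors, 4 per genotype.

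At 4 weeks there were 3 wild-type basal, 3 wild-type luminal (Cd24+ Cd29LOW), 3 Cdkn1b-/- luminal and 2 Cdkn1b-/- basal libraries, and at 6 weeks 3 wild-type basal and 2 of each other kind. The titles of these libraries carry a number, 3.4 for 1 wild-type rat and 4 for the others at 4 weeks, and 5.9 at 6 weeks except for 1 Cdkn1b-/- rat with 5.3. If these are exact ages in weeks, part of any genotype difference there cannot be told apart from age. The E2 experiment used females of the ACI strain and of the tumour-resistant Brown Norway (BN) strain, labelled with no Cdkn1b genotype, that had E2 implants from 9 weeks of age for 3 weeks or served as controls. Its luminal libraries carry CD49b and PNA in their titles, the markers of the progenitor gates, so that they may hold other luminal cells than those of 4 and 6 weeks. It had 2 ACI libraries per treatment and cell type but 1 BN library, whose title carries a pair of rat numbers, so that BN values have no replicate of their own. The labels do not say that the 9-week libraries of one group came from different rats, so that their spread may be partly technical.

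In the mammary gland the basal layer holds contractile myoepithelial cells, and the luminal layer lines the ducts and makes milk. Milk production draws on carriers that bring glucose and amino acids in from blood, carry UDP-galactose into the Golgi for lactose synthesis, load zinc into secretory vesicles and move phosphate and chloride. Cystine entering through Slc7a11 feeds glutathione synthesis, and Slc3a2 is the heavy chain that carries Slc7a5, Slc7a8 and Slc7a11 to the cell surface.

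Libraries held 21545344 to 33859550 counts in genes at 9 weeks, 14674040 to 23045345 at 4 weeks, 7985619 to 16390460 at 6 weeks and 13659389 to 25280421 in the E2 experiment. Cdkn1b itself lay between 1.80 and 4.61 CPM in the Cdkn1b-/- libraries of 9 weeks and between 6.15 and 15.7 CPM in the wild-type ones, without overlap. At 6 weeks the second Cdkn1b-/- luminal library had 36.7 CPM of Cdkn1b, inside the wild-type luminal range of 31.7 to 43.9. In the same way the first Cdkn1b-/- luminal library of 4 weeks had 18.8 CPM, inside the wild-type luminal range of 14.3 to 20.1, and the third wild-type basal library of 6 weeks had 3.48 CPM, below the 10.2 to 36.7 CPM of all 4 Cdkn1b-/- libraries of that age. The deletions leave most of the transcript to be counted, so reads outside them are no check. That second Cdkn1b-/- luminal library of 6 weeks also stood apart in markers of other cells. Its 4 adipocyte markers summed to 8535 CPM, its 4 endothelial markers to 1467 and its 5 fibroblast markers to 1953, against at most 111.6 CPM of adipocyte and 104.4 CPM of endothelial markers in the other 6-week libraries. In the E2 experiment the BN basal libraries stood apart, with 9057 CPM of fibroblast markers after E2 and 2498 CPM of adipocyte markers without it. The first ACI E2 basal library had 1757 CPM of the 7 basal markers against 5279 to 11450 in the other 5 basal libraries. Adipocyte markers summed to 1306 and 547.1 CPM in the ACI E2 basal libraries and 48.57 and 397.6 in the ACI control ones, and the first ACI E2 luminal library had 2459 CPM of fibroblast markers. At 9 weeks the second Cdkn1b-/- Cd49b+ library had the highest sum of 7 basal markers among the luminal progenitor libraries, 1815 CPM.

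Of the 179 members, 110 reached 5 CPM in all 16 libraries of 9 weeks and 8 in exactly 4. The wild-type libraries alone would have kept 164 of them and the Cdkn1b-/- libraries alone 158. The same limit was met by 9285 genes in all. Just inside the limit, the fourth-highest CPM was 5.13 for Slc36a4, 5.15 for Slc25a27 and 5.27 for Slc6a9, and just outside it was 4.70 for Slc39a2, 4.46 for Slc25a14 and 4.38 for Slc36a1. Of the 176 rows that were left out, 3 had no read in any of the 16 libraries.

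The largest substrate class was the mitochondrial carriers of the Slc25 family, with 28 of its 40 rows among the members. The family exchanges ATP, phosphate, citrate and amino acids across the inner mitochondrial membrane. Amino acid carriers had 23 of 49 rows: Slc1a1 to Slc1a5, Slc3a2, Slc6a9, Slc6a14, Slc7a1 to Slc7a8 and Slc7a11, Slc36a4, Slc38a1 to Slc38a3, Slc38a7 and Slc43a2. Carriers of inorganic ions had 22 of 56 rows, from the cation-chloride cotransporters (among them Slc12a2 and Slc12a4) and the phosphate importers (Slc20a1, Slc20a2, Slc34a2) to bicarbonate, sulphate, calcium and proton exchangers of the Slc4, Slc8, Slc9, Slc24 and Slc26 families. Nucleotide sugar carriers of the Slc35 family had 18 of 24 rows and zinc carriers 17 of 24, 7 of the exporting Slc30 and 10 of the importing Slc39 family. Sugar carriers had 13 of 25 rows: the facilitative Slc2a1, Slc2a4, Slc2a6, Slc2a8 and Slc2a9, the sodium-coupled Slc5a1, Slc5a3, Slc5a9 and Slc5a10, and Slc37a1, Slc37a4, Slc45a3 and Slc50a1.

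The smaller classes were organic ions (14 members of 60 rows), vitamins and choline (11 of 18), metals other than zinc (8 of 9), nucleosides (5 of 8), monocarboxylates (4 of 13), and lipids, peptides, osmolytes and transmitters, and a mixed remainder with 3 each. A further 4 members carry the prefix without being carriers: Slc4a1ap, Slc7a6os, Slc9a3r1 and Slc9a3r2, of which Slc9a3r1 and Slc9a3r2 encode scaffolds that bind membrane proteins. Of the organic ion carriers 23.3% of the rows passed, and of the nucleotide sugar carriers 75%. Counts are not divided by transcript length, so no order of level between members was read from them.

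The promoters of 3 members are shown. Slc7a1 and Slc30a1 were called between the ages below, and Slc1a4 is an amino acid carrier that holds the first motif and did not pass there. In the 250 bases before the start, RefSeq promoters of the rat build GRCr8 were searched on both strands for TGATGNAA, a form of the amino acid response element bound by ATF4, and for TGCACNC or TGCGCNC, the core of metal response elements. A RefSeq promoter was found for 141 of the 179 members by symbol. These 141 members had 150 promoters, since some genes have several. The shares that follow count promoters, not genes. TGATGNAA was in 3.4% of all 33469 promoters, in 3.33% of the members' and in 3 of 21 promoters of amino acid members. TGCACNC or TGCGCNC was in 20.6% of all promoters, in 36% of the members' and in 9 of 17 promoters of zinc members. Slc39a7 was counted repeatedly there through overlapping promoters, so this is not a share of the zinc genes. Capitals mark the matches, each sequence reads 5′ to 3′ on the gene's own strand, and a match is a description of letters, not a site. Slc7a1 lies at chr12:11664238-11664487 on the plus strand, Slc1a4 at chr14:98761563-98761812 on the minus strand and Slc30a1 at chr13:106021769-106022018 on the plus strand.
Slc7a1: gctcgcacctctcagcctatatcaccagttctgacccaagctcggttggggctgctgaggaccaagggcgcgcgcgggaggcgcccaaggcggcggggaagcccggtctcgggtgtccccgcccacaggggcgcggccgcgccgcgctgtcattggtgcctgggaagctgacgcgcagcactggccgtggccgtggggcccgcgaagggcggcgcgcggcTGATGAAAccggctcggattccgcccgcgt
Slc1a4: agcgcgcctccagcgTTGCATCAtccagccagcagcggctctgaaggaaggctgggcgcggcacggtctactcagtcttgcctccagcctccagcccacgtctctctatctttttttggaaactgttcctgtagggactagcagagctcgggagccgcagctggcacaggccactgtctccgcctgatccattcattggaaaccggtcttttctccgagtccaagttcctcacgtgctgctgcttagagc
Slc30a1: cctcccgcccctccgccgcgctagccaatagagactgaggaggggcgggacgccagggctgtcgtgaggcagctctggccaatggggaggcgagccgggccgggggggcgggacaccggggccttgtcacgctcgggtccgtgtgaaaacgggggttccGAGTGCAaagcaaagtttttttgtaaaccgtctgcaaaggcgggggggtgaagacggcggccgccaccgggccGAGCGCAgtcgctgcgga

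In wild-type rats of 4 weeks, basal and luminal cells differed in 60 of the 177 members tested, 25 higher in basal and 35 higher in luminal cells (edgeR quasi-likelihood test, adjusted p under 0.05 over all 12082 genes). The same test called 23.5% of all genes, 13.8% higher in basal cells and 9.73% lower, and 22.6% of the genes meeting the same CPM floor. The median log2 fold change, basal over luminal, was -0.22 over the members, -0.05 over all genes and -0.11 over the genes meeting that floor. Most of the libraries of the rule were luminal, and 13 members entered through luminal populations alone against 5 through basal cells alone, which was not taken out of these medians. Basal cells had the insulin-responsive glucose transporter Slc2a4, the serotonin transporter Slc6a4 and the arginine carrier Slc7a3, and luminal cells the glucose cotransporter Slc5a1, the nucleoside carrier Slc28a3 and the monocarboxylate cotransporter Slc5a8. The libraries are bulk RNA of sorted cells, in which fewer cells of a type and less RNA per cell cannot be told apart. The 7 basal markers summed to 11750 to 11830 CPM in the basal and 50.45 to 77.51 CPM in the luminal libraries, with no marker at 0 in either.

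**Figure D1:**
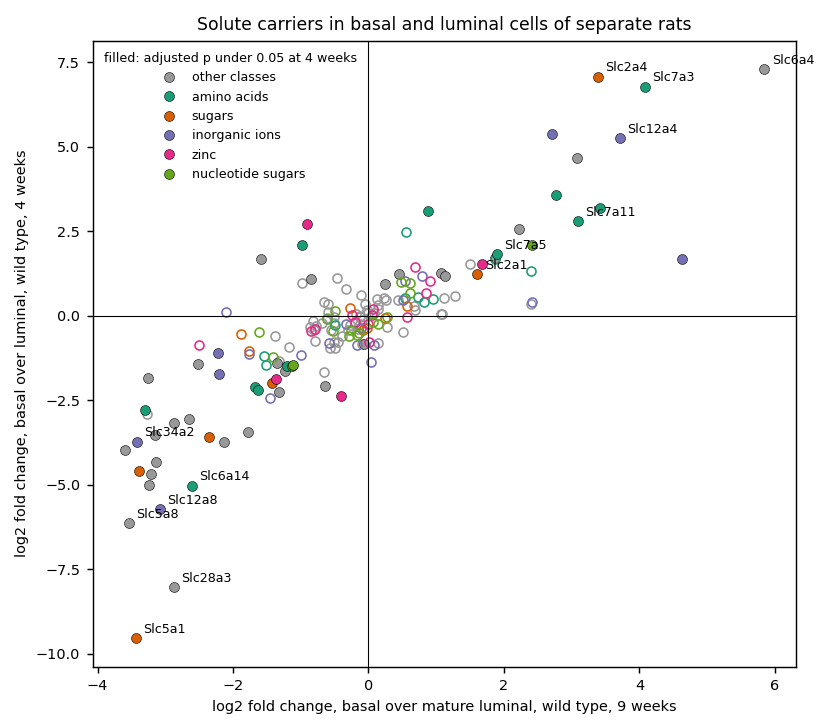
Each point is a member, with the log2 fold change of basal over mature luminal cells at 9 weeks on the x axis and of basal over luminal cells at 4 weeks on the y axis, wild-type rats; colours mark substrate classes and filled points had an adjusted p under 0.05 at 4 weeks (60 of 177). All 40 members called at both ages lie at the lower left or upper right, and the position of Slc5a1, without a read in the 4-week basal libraries, is not a bound.

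Sugar carriers split between the layers, with 2 of 13 higher in basal and 4 higher in luminal cells at 4 weeks. Slc2a4 had 70.2, 58.6 and 45.5 CPM in the 3 wild-type basal libraries and 0.609, 0.321 and 0.438 in the 3 luminal ones. The log2 fold change was 7.07 (SE 0.57, adjusted p 5.48e-06), and the Cdkn1b-/- rats of that age had 104 and 81.9 CPM in basal and 0 to 0.377 in luminal libraries. Slc2a1, the glucose transporter of most growing cells, had 253, 429 and 310 CPM in basal and 158, 159 and 137 in luminal libraries, groups that did not overlap, a log2 fold change of 1.22 (SE 0.31, adjusted p 0.0124). The call on Slc2a1 was lost in 2 of 6 omissions of a library, with an adjusted p of up to 0.065 without wild-type basal replicate 2. Slc5a1 had no read in any of the 3 basal libraries and 1.16, 9.68 and 4.02 CPM in the luminal ones, at least 34-fold higher in luminal cells against a floor of 3 counts per basal library (adjusted p 0.000895). The related Slc5a9 was lower in basal cells by a log2 fold change of -4.60 (adjusted p 0.00151), with 0.595, 0.298 and 0 CPM against 7.69, 10.0 and 5.85.

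Amino acid carriers had the most calls of any class, 7 higher in basal and 5 higher in luminal cells among 22 tested, and a median log2 fold change of 0.53. Slc7a3 had 82.8, 213 and 194 CPM in basal and 2.60, 1.45 and 0.796 in luminal libraries, a log2 fold change of 6.77 (SE 0.65, adjusted p 1.38e-05). Slc7a11, the cystine/glutamate exchanger, had 35.2, 54.9 and 74.5 CPM against 11.6, 7.01 and 6.81 (log2 fold change 2.79, adjusted p 0.000195). The leucine exchanger Slc7a5 had 97.0, 199 and 190 CPM against 23.4, 62.7 and 59.9 (1.81, adjusted p 0.0211). In all 3 genes every basal library lay above every luminal one. The Slc7a5 call was lost in 3 of 6 omissions, with an adjusted p of up to 0.0716 without wild-type luminal replicate 1, while those on Slc7a3 and Slc7a11 were kept in all 6.

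Slc6a14, a broad carrier of neutral and cationic amino acids, was the amino acid carrier with the largest difference in the other direction. It had 5.81, 1.98 and 13.4 CPM in basal and 182, 277 and 274 in luminal libraries, a log2 fold change of -5.03 (adjusted p 0.000288). The glutamine carrier Slc1a5 had 20.3, 37.9 and 28.5 CPM in basal and 96.5, 74.0 and 88.1 in luminal cells (-1.48, adjusted p 0.0153). Its call was lost in 2 of 6 omissions, with an adjusted p of up to 0.0786 without wild-type basal replicate 1. The remaining called carriers of the class were Slc38a1, Slc1a3, Slc43a2 and Slc7a7 on the basal side and Slc38a3, Slc7a4 and Slc1a1 on the luminal side, named here after their values were seen.

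Ion carriers had 3 of 21 higher in basal and 4 higher in luminal cells, with a median of -0.81. The potassium-chloride cotransporter Slc12a4 had 37.2, 63.0 and 38.2 CPM in basal and 0.941, 0.963 and 1.91 in luminal libraries (log2 fold change 5.25, SE 0.72, adjusted p 0.000173). The sodium-calcium exchanger Slc8a1 had 11.7, 6.35 and 16 CPM against 0, 0.482 and 0.358 (5.36, SE 0.97, adjusted p 0.00129). On the luminal side stood Slc12a8, with 0, 0.546 and 0.657 CPM in basal and 21.7, 24.3 and 22.2 in luminal libraries (-5.73, adjusted p 0.00016). Both phosphate importers that were called lay on that side too. The other importer, Slc20a2, was not called and leaned to the basal side. It had 22.7, 33.1 and 34.4 CPM in basal and 9.52, 24.6 and 12.8 in luminal libraries, groups that overlapped. Slc34a2, an apical phosphate cotransporter, had 0.229, 2.38 and 5.81 CPM in basal and 13.9, 66.8 and 37.7 in luminal libraries (-3.74, adjusted p 0.0188), and Slc20a1 had 91.5, 138 and 178 CPM against 321, 328 and 288 (-1.11, adjusted p 0.0344). No basal library reached the lowest luminal value of Slc34a2 or Slc20a1, but the Slc34a2 call was lost in 2 of 6 omissions (adjusted p up to 0.0739 without wild-type basal replicate 2) and the Slc20a1 call in 5 (up to 0.157 without wild-type basal replicate 1).

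Zinc carriers had 4 calls among 17, 2 in each direction, and a median of -0.06. Slc30a4, which loads zinc into vesicles and is tied to milk zinc, had 28.8, 38.9 and 73.7 CPM in basal and 107, 283 and 156 in luminal libraries (-1.87, SE 0.55, adjusted p 0.025). The importer Slc39a8 had 9.43, 15.4 and 15.3 CPM in basal and 2.66, 3.0 and 0.876 in luminal libraries (2.71, SE 0.76, adjusted p 0.0192). Neither gene's groups overlapped, and each call was lost in 3 of 6 omissions, with an adjusted p of up to 0.123 for Slc30a4 without wild-type luminal replicate 2 and 0.0828 for Slc39a8 without wild-type luminal replicate 3. Slc30a1, the exporter at the plasma membrane whose promoter is printed above, had 137, 160 and 143 CPM in basal and 147, 74.8 and 71.9 in luminal libraries, groups that overlapped (0.68, adjusted p 0.158).

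The other metals included Slc11a2, the importer of ferrous iron, with 15.2, 18.4 and 14.5 CPM in basal and 70.0, 44.9 and 43.6 in luminal libraries (-1.63, adjusted p 0.00292). The iron exporter Slc40a1 had 1.37, 2.58 and 1.87 CPM against 7.75, 9.58 and 4.94 (-1.84, adjusted p 0.0123), so that importer and exporter of iron were both lower in basal cells. Its call was lost in 2 of 6 omissions, with an adjusted p of up to 0.0655 without wild-type luminal replicate 2.

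Nucleotide sugar carriers leaned to the luminal side, 13 of 18 with a negative fold change and a median of -0.33, but only 3 were called, 1 higher in basal and 2 higher in luminal cells. Slc35c1, which brings GDP-fucose into the Golgi, had 4.72, 8.73 and 8.44 CPM in basal and 20.1, 23.6 and 21.3 in luminal libraries (-1.48, SE 0.43, adjusted p 0.0225). That call was lost in 3 of 6 omissions, with an adjusted p of up to 0.0921 without wild-type basal replicate 1. The UDP-galactose carrier Slc35a2 had 9.61, 13.5 and 6.47 CPM against 16.9, 30.8 and 25.2, without overlap, and did not pass the test (-1.22, adjusted p 0.0563).

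Outside these classes, Slc6a4 had 33.3, 30.6 and 23.7 CPM in basal and 0.166, 0.161 and 0.239 in luminal libraries (7.29, SE 0.61, adjusted p 6.11e-06). All 3 members placed by symbol among carriers of osmolytes and transmitters, Slc6a4, Slc6a6 and Slc6a8, were called higher in basal cells. Slc5a3, a carrier of the osmolyte myo-inositol, was placed among the sugar carriers. It had 54.2, 29.3 and 43.6 CPM in basal and 45.5, 79.9 and 71.0 in luminal libraries, groups that overlapped. Slc5a8 had 0.641, 0.099 and 1.92 CPM in basal and 74.0, 71.7 and 55.7 in luminal libraries (-6.15, adjusted p 5.13e-05). Slc28a3 had 0, 0.248 and 0 CPM against 10.5, 49.1 and 13.2 (-8.04, adjusted p 0.000567). The 5 members with the largest fold changes in each direction, together with Slc7a11 and Slc11a2, kept their calls in all 6 omissions. All 4 called carriers of vitamins and choline were higher in luminal cells, and of the 28 mitochondrial carriers 2 were called higher and 4 lower in basal cells, among the latter the citrate carrier Slc25a1 (-0.84, adjusted p 0.0345, lost in 5 of 6 omissions, up to 0.134 without wild-type basal replicate 1). With the rat as a replicate block, 79 members were called in place of 60, a count given without its share of all genes and not read as a trait of the carriers.

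**Figure D2:**
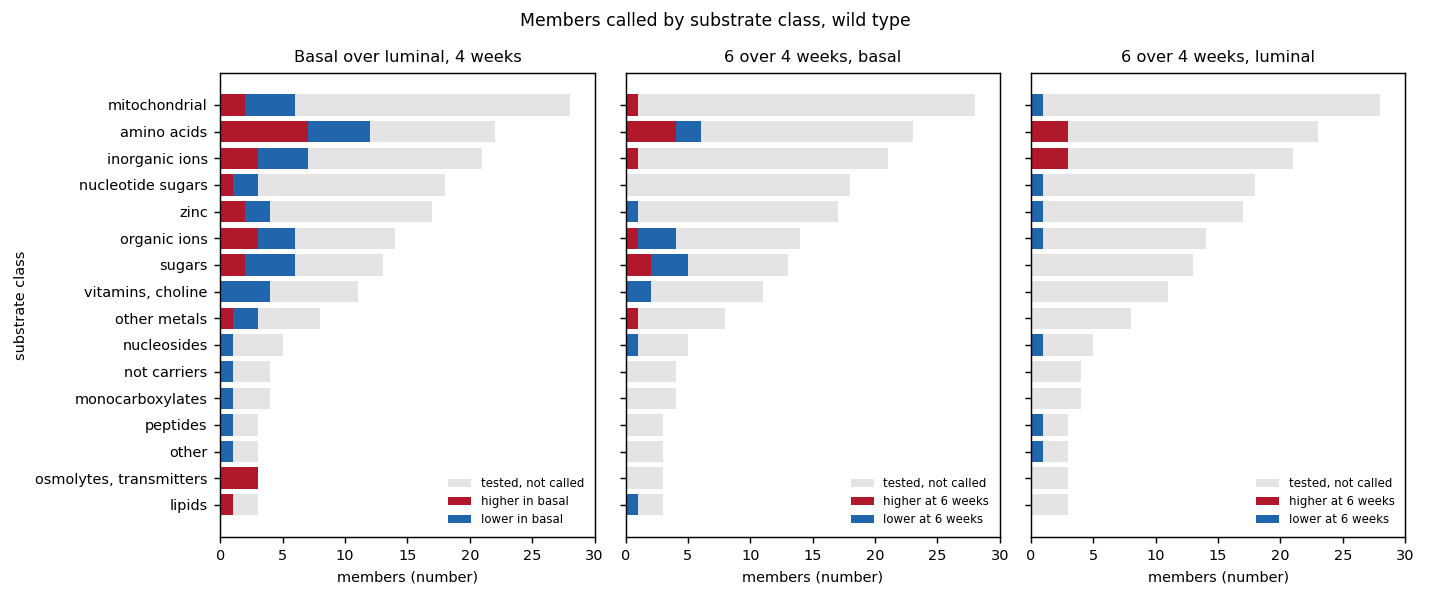
Bars give the number of members per substrate class that were called higher (red) or lower (blue) or tested and not called (grey), in 3 comparisons of wild-type libraries. Amino acid carriers have 12 calls of 22 between basal and luminal cells at 4 weeks, 6 of 23 between 6 and 4 weeks in basal cells and 3 of 23 in luminal cells.

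The same contrast could be read in the 9-week libraries that chose the members, and in separate rats. Basal and mature luminal cells of wild-type rats differed in 62 of 179 members there, 26 higher and 36 lower in basal cells, where 20.9% of all genes were called and 24.8% of those meeting the same CPM floor. With 1 library left out 35 to 43 were called, the lowest without wild-type basal replicate 1 or mature luminal replicate 1. Libraries of one number deviated together across populations, and with the number within genotype as a block 103 members were called. The share of all genes with that block is not given here, so the rise is not read as a trait of the carriers. Of the 62, 40 were called at 4 weeks too (64.5% of the 62 and 66.7% of the 60), all 40 with the same sign. They held 7 amino acid, 6 ion and 6 sugar carriers, 4 mitochondrial carriers and 1 zinc carrier. The same overlap was not counted over all genes, so it is not read as a trait of the carriers. Slc2a4 had a log2 fold change of 3.38 at 9 weeks, Slc7a3 of 4.08, Slc7a11 of 3.10, Slc12a4 of 3.72 and Slc34a2 of -3.41.

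The Slc9a3r1 scaffold was called between the layers in all 4 experiments. It had 31.2, 36.0 and 25.3 CPM in basal and 441, 372 and 331 in luminal libraries at 4 weeks (-3.54, adjusted p 9.3e-06). At 6 weeks the same gene had 44.6, 18.3 and 59.8 CPM against 159 and 266. In the E2 experiment, with strain and treatment in the fit, its log2 fold change was -2.10 (SE 0.27, adjusted p 0.0089), and each basal library lay below the luminal library of its strain and treatment.

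At 6 weeks 5 of 177 members were called between wild-type basal and luminal cells, where 2.43% of all genes were. All 5 were also among the 60 of 4 weeks, an overlap not counted over all genes. The adenine nucleotide carrier Slc25a4 had 436, 427 and 733 CPM in basal and 107 and 111 in luminal libraries (2.24, adjusted p 0.0281). The urea transporter Slc14a1 had 0.549, 0.714 and 0 CPM against 122 and 121 (adjusted p 0.0237), and Slc5a8 had 0.392, 0.26 and 3.34 CPM against 157 and 188 (-7.16, adjusted p 0.0298). The glutamate carrier Slc1a3 had 65.2, 65.8 and 9.05 CPM in basal libraries and no read in either luminal one, at least 180-fold higher against the floor of 3 counts per library (adjusted p 0.035). All 5 calls were lost without wild-type luminal replicate 1, which leaves 1 luminal library assumed to vary like the other groups. With the rat as a replicate block 2 were called, Slc14a1 and Slc5a8, and the adjusted p of Slc1a3, Slc25a4 and Slc9a3r1 was 0.0577, 0.0675 and 0.0872.

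In the E2 experiment 5 of 168 members were called between basal and luminal cells, where 1.98% of all genes were. All 5 were among the calls of 4 weeks, an overlap not counted over all genes. Slc6a14 had 0.041 and 0 CPM in the ACI control, 0 and 0 in the ACI E2, 0.941 in the BN control and 1.55 in the BN E2 basal libraries. The matching luminal values were 56.5 and 21.9, 30.1 and 29.8, 89.6 and 56.3 CPM, all above every basal one (-8.95, adjusted p 0.0129). Slc12a4 ranged from 55.2 to 233 CPM in basal and from 5.87 to 60.4 in luminal libraries (2.90, SE 0.59, adjusted p 0.0309), and Slc25a4 had a log2 fold change of 1.66 (adjusted p 0.015). The calls on Slc12a4 and on the carrier Slc25a25 (1.79, adjusted p 0.0427) were lost when single libraries were left out. The member count then ran from 3 to 11, the highest without ACI E2 luminal replicate 1.

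Between luminal progenitors and mature luminal cells of 9-week wild-type rats, 12 members differed, 8 higher and 4 lower in progenitors, where 11% of all genes were called. With the number within genotype as a block 54 were called, and without wild-type Cd49b+ replicate 2 none, counts given without their share of all genes. The zinc importer Slc39a10 had 27.9 and 29.4 CPM in Cd49b+, 21.7 and 27.3 in PNA+, 11.5 and 9.28 in mature luminal and 36.5 and 30.4 in basal wild-type libraries. Its log2 fold change was 1.35 between progenitors and mature cells. The concentrative nucleoside carrier Slc28a2 averaged 42 CPM in progenitors and 11.6 in mature cells. Between basal cells and luminal progenitors 82 members differed, 28 higher and 54 lower in basal cells, where 30.9% of all genes were called. With 1 library left out 40 to 75 were called, 40 without wild-type basal replicate 1 and 55 without basal replicate 2, and 47 when the progenitor libraries of one number were summed. The Cd49b+ and PNA+ progenitor libraries differed in no member by edgeR or by DESeq2, and 4 members had an unadjusted p under 0.05, as did 3.05% of all 11725 genes, of which 0% were called.

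The genotype comparison at 9 weeks asked how loss of p27 altered the populations. Cdkn1b-/- luminal progenitors differed from wild-type ones in 14 of the 179 members, 8 higher and 6 lower, where 3.4% of all genes were called and 3.73% of those that met the CPM floor. In 29 members the 4 libraries of one genotype did not overlap the 4 of the other, where 13.2% of all genes had none. The 4 libraries were 2 numbers, each with a Cd49b+ and a PNA+ library. Same-numbered Cd49b+ and PNA+ libraries deviated together (r 0.911 in wild-type and 0.708 in Cdkn1b-/- rats). They are thus not 4 separate draws, and the SD, SE and calls below may understate the spread between rats. These libraries chose the members, so the values below are descriptions. Of the 8 higher members, 6 would have entered from the wild-type libraries alone, and of the 6 lower ones 2 from the Cdkn1b-/- libraries alone.

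**Figure D3:**
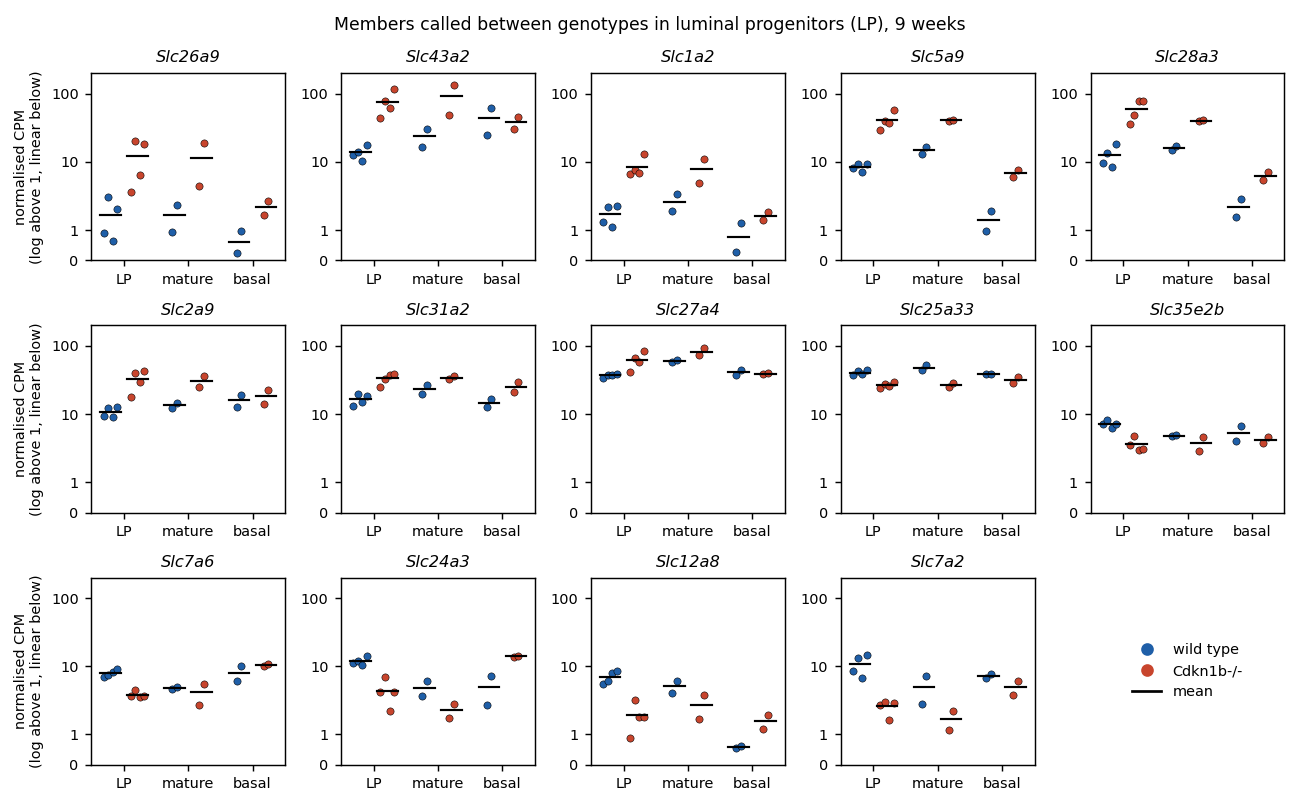
Normalised CPM (log scale above 1, linear below) of the 14 members called between genotypes in luminal progenitors (LP) in each library of 9 weeks, wild type in blue and Cdkn1b-/- in red, with bars at the mean; LP holds Cd49b+ and PNA+ libraries, 4 per genotype, and mature and basal cells 2 per genotype. In all 14 genes the LP libraries of the 2 genotypes do not overlap.

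On the higher side stood 2 sugar carriers, and the class of 13 had a median log2 fold change of 0.44 with 11 positive, beside a median of 0.03 over all genes. The sodium-glucose carrier Slc5a9 had 9.30 and 8.12 CPM in Cd49b+ and 7.09 and 9.28 in PNA+ wild-type libraries, and 40.4, 29.2, 37.4 and 58.2 in the Cdkn1b-/- ones. Its log2 fold change was 2.29 (SE 0.25). In mature luminal cells it had 16.7 and 13.0 CPM in wild-type and 40.4 and 41.1 in Cdkn1b-/- libraries, and in basal cells 0.955 and 1.89 against 5.92 and 7.71, where it was the 1 member called (2.27, SE 0.37) in a comparison that called 0.0546% of all genes. That basal call was lost in 3 of 4 omissions of a library, those of both Cdkn1b-/- libraries and of wild-type replicate 1, and also with RLE size factors, without a filter on low counts and with the compared groups alone. In the basal libraries the 5 milk protein genes named below summed to 4165 to 5850 CPM in wild-type and 25430 to 30030 in Cdkn1b-/- rats. The 6 luminal markers summed to 4153 to 6192 against 6594 to 7434 CPM, and the 7 basal markers to 12410 to 15410 against 15930 to 18720. The part of these markers in the basal Slc5a9 difference was not tested. Slc2a9, a carrier of urate and hexoses, had 9.45, 12.3, 9.09 and 12.5 CPM in wild-type and 40.2, 17.9, 42.8 and 29.8 in Cdkn1b-/- progenitors (1.59).

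Of the amino acid carriers 4 were called, 2 in each direction. Slc43a2, a carrier of large neutral amino acids, averaged 13.8 ± 3.17 CPM (SD, n = 4 libraries of 2 numbers) in wild-type and 75.5 ± 31.6 in Cdkn1b-/- progenitors, a log2 fold change of 2.46 (SE 0.41). The glutamate carrier Slc1a2 averaged 1.70 ± 0.578 against 8.54 ± 2.99 (2.33, SE 0.45). The arginine carrier Slc7a2 went the other way, with 8.52, 13.2, 6.72 and 14.7 CPM in wild-type and 3.04, 2.73, 2.88 and 1.64 in Cdkn1b-/- libraries (-2.06, SE 0.36), and so did Slc7a6, a partner of Slc3a2, with 6.93, 7.36, 9.15 and 8.24 against 3.70, 4.49, 3.55 and 3.63 (-1.04). Of the ion carriers 3 were called. Slc26a9, a chloride channel and exchanger, averaged 1.65 ± 1.12 CPM against 12.1 ± 8.28 (2.86, SE 0.71), while Slc12a8 (-1.89) and the calcium exchanger Slc24a3 (-1.44) were lower. The nucleoside carrier Slc28a3 averaged 12.6 ± 4.53 CPM in wild-type and 60.4 ± 21.2 in Cdkn1b-/- progenitors (2.26, SE 0.31). The other called members were the copper carrier Slc31a2 (1.02) and the fatty acid carrier Slc27a4 (0.75) on the higher side and Slc35e2b (-0.99) and the pyrimidine nucleotide carrier Slc25a33 (-0.61) on the lower side. No zinc carrier was called (median 0.23, 12 of 17 positive).

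The 5 milk protein genes, Wap, Csn1s1, Csn2, Csn3 and Lalba, summed to 18230 to 53860 CPM in the wild-type and 90910 to 196900 CPM in the Cdkn1b-/- progenitor libraries, with none at 0. The 4 hormone-sensing markers, Esr1, Pgr, Foxa1 and Prlr, summed to 196.8 to 275.7 CPM in the wild-type and 95.72 to 131.4 CPM in the Cdkn1b-/- progenitor libraries, again with none at 0. The part of either list in the carrier differences was not tested. Of the 10 with the largest fold changes, Slc5a9, Slc28a3, Slc43a2 and Slc7a2 kept their calls in all 8 omissions of a library, and the other 6 lost them at least once. These omissions used the libraries that chose the members, so a kept call is a description and not a separate test. The count of called members ran from 6 without wild-type PNA+ replicate 2 to 31 without Cdkn1b-/- Cd49b+ replicate 2. None was called when the Cd49b+ and PNA+ libraries of one genotype and number were summed, which leaves 2 samples per genotype.

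All 14 had the same sign in mature luminal cells, 13 without overlap between genotypes, where 29.6% of all genes had none. edgeR called 0 of 179 members there (3 by DESeq2) and 0.133% of all genes, and 17 members and 7.15% of all genes had an unadjusted p under 0.05. The mature and progenitor libraries of one number deviated together, so these are not separate draws of rats. In basal cells 9 of the 14 had the same sign, 7 of them without overlap, where 37% of all genes had none. The same members were read in the luminal cells of separate, younger rats. Of 13 tested at 4 weeks 4 had the same sign, 0 were called and 0 were without overlap, where 11.4% of all genes had none, and at 6 weeks 7 of 13 had it. Slc5a9, for example, had 7.69, 10.0 and 5.85 CPM in wild-type and 2.75, 5.73 and 8.23 in Cdkn1b-/- luminal libraries of 4 weeks, and 9.00 and 5.21 against 4.25 and 0 at 6 weeks. A test of the difference between the genotype effects of progenitors and basal cells at 9 weeks called 0 members and 0% of all genes by edgeR, with 16 members and 7.23% of all genes at an unadjusted p under 0.05. The same test between progenitors and mature luminal cells called 0 members, with 3 members and 1.75% of all genes at an unadjusted p under 0.05. These fits had no block for the number that the populations share. With the number within genotype as a block, chosen after the data were seen, the difference between progenitors and basal cells was called in 2 members and 0.414% of all genes, and that between progenitors and mature cells in none, with 9 members and 4.52% of all genes at an unadjusted p under 0.05. The 2 members were Slc1a5 (-2.52, SE 0.35) and Slc12a8 (-3.32, SE 0.53). Slc1a5 had 33.9, 51.9, 37.8 and 47.0 CPM in wild-type and 17.9, 53.4, 21.7 and 32 in Cdkn1b-/- progenitors, and 4.97 and 10.5 against 25.2 and 32.1 in basal cells. In Slc1a5 the genotypes overlapped in progenitors and not in basal cells. The part of the milk and luminal markers of the basal libraries, given above, was not tested.

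Between 4 and 6 weeks the basal cells of wild-type rats changed in 23 of 178 members, 10 higher and 13 lower at 6 weeks, where 10.5% of all genes were called. With RLE size factors, which moved the median of all genes from 0 to -0.17, the calls were 9 higher and 18 lower. The age groups were separate cohorts, so age and batch cannot be told apart. In one or both cell types 5 carriers of amino acids rose, the cystine exchanger Slc7a11, the arginine carriers Slc7a1 and Slc7a3, the glycine carrier Slc6a9 and the leucine exchanger Slc7a5. The zinc exporter Slc30a1 and the nucleoside carrier Slc29a1 fell in both, and the phosphate importer Slc20a1 rose in both.

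**Figure D4:**
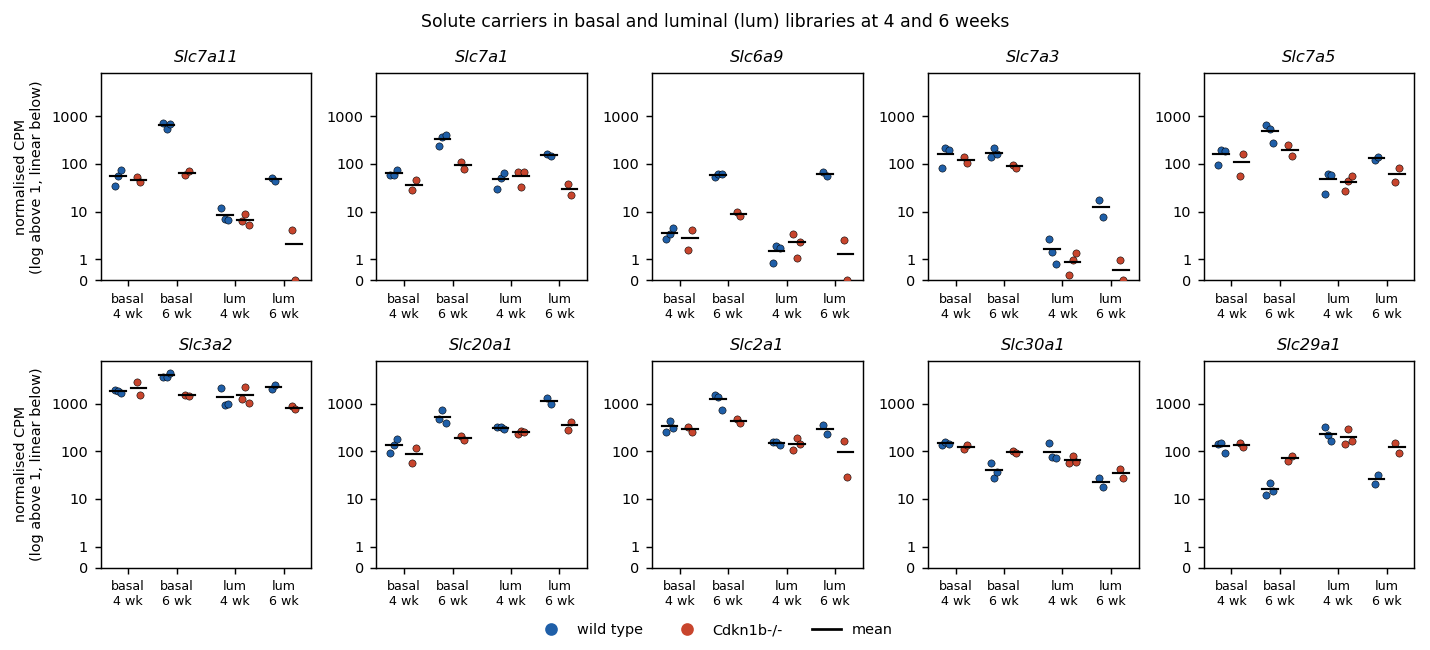
Normalised CPM (log scale above 1, linear below) of 10 members in each basal and luminal (lum) library of 4-week-old and 6-week-old rats, wild type in blue and Cdkn1b-/- in red, with bars at the mean. Wild-type Slc7a11 sits between 35.2 and 74.5 in basal libraries of 4 weeks and between 540 and 730 at 6 weeks, while the Cdkn1b-/- basal libraries of 6 weeks are at 58.4 and 70.1.

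Slc7a11 had 35.2, 54.9 and 74.5 CPM in the wild-type basal libraries of 4 weeks and 730, 540 and 697 at 6 weeks. The log2 fold change was 3.58 (SE 0.67, adjusted p 0.00364), and the ages did not overlap. Slc7a1, the main importer of arginine and lysine in most tissues, had 58.8, 57.1 and 75.8 CPM at 4 weeks and 241, 363 and 403 at 6 weeks in basal cells (2.39, SE 0.41, adjusted p 0.00211), and 29.3, 49.9 and 64.7 against 162 and 147 in luminal cells (1.69, adjusted p 0.0395). Slc6a9 had 2.70, 3.32 and 4.45 CPM against 54.1, 62.6 and 60.2 in basal cells (4.08, SE 0.86, adjusted p 0.00734). In luminal cells Slc6a9 had 0.83, 1.87 and 1.75 CPM against 66.8 and 55.5 (5.36, SE 0.94, adjusted p 0.00702).

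Of these, Slc7a11, Slc7a1 and Slc6a9 kept their basal calls in all 6 omissions of a library. Slc7a5 had 97.0, 199 and 190 CPM at 4 weeks and 649, 542 and 268 at 6 weeks in basal cells (1.59, SE 0.50, adjusted p 0.0491). Its call was lost in 5 of 6 omissions, with an adjusted p of up to 0.174 without wild-type basal replicate 1 of 4 weeks, and with RLE size factors (0.0751). Slc7a3 changed in luminal cells, from 2.60, 1.45 and 0.796 to 17.2 and 7.67 CPM (2.95, adjusted p 0.0316). The heavy chain Slc3a2 had 1951, 1802 and 1680 CPM at 4 weeks and 3623, 3601 and 4435 at 6 weeks in basal cells, without overlap, and did not pass (1.10, adjusted p 0.0653). Neither did Slc1a4, a carrier of serine and alanine, with 16.6, 17.1 and 3.76 CPM at 6 weeks (2.82, adjusted p 0.0842), nor the neutral amino acid carrier Slc38a2 (-0.18).

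The amino acid class as a whole had 4 calls higher and 2 lower among 23 in basal cells, with a median of 0.86, where the members' median was -0.06 and that of all genes 0. In luminal cells it had 3 higher and 0 lower, with a median of 0.74, beside -0.42 over the members and -0.13 over all genes. The 2 that fell in basal cells were Slc43a2, with 36.9, 59.1 and 73.4 CPM at 4 weeks (-2.93, adjusted p 0.017), and Slc7a4, which had no read in any basal library of 6 weeks and was at least 18.4-fold lower than at 4 weeks against the floor of 3 counts per library (adjusted p 0.00475). Of the 5 carriers that rose, 4 had a RefSeq promoter by symbol, and 1, that of Slc7a1, held TGATGNAA, on the plus strand 30 to 23 bases before the start.

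The zinc exporter Slc30a1 and the phosphate importer Slc20a1 were called in both cell types, in opposite directions. Slc30a1 had 137, 160 and 143 CPM in wild-type basal libraries of 4 weeks and 56.2, 27.7 and 37.3 at 6 weeks (-1.86, SE 0.38, adjusted p 0.00654), and 147, 74.8 and 71.9 against 27.4 and 17.7 in luminal cells (-2.12, adjusted p 0.0196). It was the 1 zinc carrier of 17 called in either cell type, and of the 3 phosphate importers 1 was called. Its promoter above holds the metal response core at 2 places on the minus strand. Slc20a1 had 91.5, 138 and 178 CPM against 464, 717 and 393 in basal cells (1.95, SE 0.36, adjusted p 0.00334) and 321, 328 and 288 against 1293 and 1003 in luminal cells (1.88, adjusted p 0.0141). The ages did not overlap in any of these 4 comparisons.

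Sugar carriers moved in both directions in basal cells, 2 higher and 3 lower of 13, and in luminal cells none was called. Slc2a1 had 253, 429 and 310 CPM at 4 weeks and 1539, 1404 and 719 at 6 weeks (1.89, SE 0.48, adjusted p 0.0201), without overlap, a call lost in 4 of 6 omissions (up to 0.0859 without wild-type basal replicate 1 of 4 weeks). Slc2a4 fell from 70.2, 58.6 and 45.5 CPM to 2.12, 5.45 and 4.04 (-3.90, SE 0.79, adjusted p 0.00639), and that call was kept in all 6. The urate carrier Slc2a9 was lower as well (-3.95, adjusted p 0.0491), a call lost in 5 of 6 omissions (up to 0.12 without wild-type basal replicate 1 of 6 weeks).

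The nucleoside carrier Slc29a1 had 139, 150 and 91.7 CPM against 11.9, 22.0 and 14.3 in basal cells (-2.98, adjusted p 0.000774) and 320, 214 and 165 against 20.1 and 32.3 in luminal cells (-3.15, adjusted p 0.0043). Slc35a1, which carries CMP-sialic acid into the Golgi, had 64.8, 63.3 and 52.6 CPM at 4 weeks and 4.98 and 6.59 at 6 weeks in luminal cells (-3.38, SE 0.50, adjusted p 0.00354). It was the 1 nucleotide sugar carrier of 18 called there, and in basal cells, where none was called, it had 73.3, 48.3 and 64.2 CPM against 23.5, 16.4 and 46.0. Other large changes were uneven between libraries. Slc4a11 in luminal cells had 12.6, 10.0 and 18.0 CPM at 4 weeks and 922 and 138 at 6 weeks (5.29, adjusted p 0.0109, and 0.262 without wild-type luminal replicate 1 of 6 weeks). Slc22a23 in basal cells had 2.34, 5.26 and 2.53 CPM at 4 weeks and 75.5, 60.1 and 1.67 at 6 weeks (3.76, adjusted p 0.0298), groups that overlapped, and its call was lost in 5 of 6 omissions (up to 0.111 without wild-type basal replicate 1 of 4 weeks).

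Luminal cells changed in 13 of 178 members between the ages, 6 higher and 7 lower, where 3.1% of all genes were called. None of the 13 was called without wild-type luminal replicate 1 of 6 weeks, where the adjusted p was 0.0908 for Slc6a9, 0.102 for Slc35a1, 0.139 for Slc29a1 and 0.184 for Slc20a1. Without wild-type luminal replicate 2 of 6 weeks 16 were called. In basal cells the count ran from 14 without wild-type basal replicate 3 of 4 weeks to 29 without wild-type basal replicate 3 of 6 weeks. Slc6a9, Slc7a1, Slc17a9, Slc20a1, Slc29a1 and Slc30a1 were called in both cell types, whose libraries came from the same rats. A test of the difference between the age changes of luminal and basal cells called 0 members by edgeR, with 20 members and 10.7% of all genes at an unadjusted p under 0.05, and 0 with the rat as a block, with 32 members and 10.3%. The 7 basal markers summed to 11750 to 11830 CPM in wild-type basal libraries of 4 weeks, to 4000 to 5465 at 6 weeks and to 8670 to 10300 in the Cdkn1b-/- basal libraries of 6 weeks. In the same order the 6 luminal markers summed to 3530 to 4225, 4864 to 6425 and 3688 to 3894 CPM. The third wild-type basal library of 6 weeks was the shallowest of that age, with 7985619 counts in genes and 77.02% of reads in no gene. The 6 myeloid markers summed to 616.2 to 961.2 CPM in wild-type luminal libraries of 4 weeks and to 137.4 to 228.4 at 6 weeks. They include Cd14, which is also in the list of luminal progenitor markers, so their sum does not measure myeloid cells alone. The part of these markers and of depth in the carrier changes was not tested.

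In Cdkn1b-/- rats no member was called between 6 and 4 weeks in either cell type by edgeR, where 0.318% and 0% of all genes were called. At an unadjusted p under 0.05 there were 10 luminal members beside 8.4% of all genes and 4 basal members beside 2.49%, and DESeq2 was not run on those contrasts. Slc7a11 had 52.2 and 41.1 CPM in Cdkn1b-/- basal libraries of 4 weeks and 58.4 and 70.1 at 6 weeks. Slc7a1 had 27.8 and 46.0 CPM against 109 and 76.5. Slc30a1 had 110 and 138 against 99.9 and 92.4, and Slc29a1 had 148 and 121 against 61.9 and 81.1.

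Whether the genotypes differed more at 6 than at 4 weeks was tested as a difference of differences in luminal cells. Of 178 members 3 were called, where 1.21% of all genes were. The genotype effect on Slc35a1 was higher at 6 weeks by 3.28 on the log2 scale (SE 0.63, adjusted p 0.0174), with 55.1 and 64.7 CPM in Cdkn1b-/- and 4.98 and 6.59 in wild-type luminal libraries of 6 weeks and 70.8, 60.1 and 61.9 against 64.8, 63.3 and 52.6 at 4 weeks. That on Slc6a9 differed by -6.08 (SE 1.34, adjusted p 0.0323), with 2.58 and 0 CPM in Cdkn1b-/- libraries of 6 weeks against 66.8 and 55.5. That on Slc7a1 differed by -2.59 (SE 0.62, adjusted p 0.0487), with 37.5 and 22.6 CPM against 162 and 147. Slc7a11 (-4.13, SE 1.02, adjusted p 0.0566) and Slc29a1 (2.40, SE 0.62, adjusted p 0.0659) did not pass.

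None of the 3 was called without wild-type luminal replicate 1 of 6 weeks, where the adjusted p was 0.142 for Slc35a1, 0.138 for Slc6a9 and 0.204 for Slc7a1, and 59 members were called without Cdkn1b-/- luminal replicate 1 of 6 weeks, which leaves the library that stood apart as the only Cdkn1b-/- luminal one of that age. Without the library that stood apart, Cdkn1b-/- luminal replicate 2 of 6 weeks, Slc35a1 had a difference of 3.13 (adjusted p 0.0395), Slc6a9 of -5.16 (0.0484) and Slc7a1 of -2.29 (0.2). The Slc7a1 call was also lost with RLE size factors (0.0519) and without a filter on low counts (0.0635). The same test in basal cells called 0 members and 0.0398% of all genes by edgeR, with 17 members and 8.94% of all genes at an unadjusted p under 0.05.

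Within 6 weeks alone, edgeR called 0 of 177 members between genotypes in luminal cells (20 by DESeq2) and 0 in basal cells (8), and 0% of all genes in both. At an unadjusted p under 0.05 there were 22 luminal members beside 16.4% of all genes and 21 basal members beside 8.99%. The lowest adjusted p was 0.124, for Slc7a1 in luminal cells (-2.35, SE 0.46). In luminal cells 98 members had no overlap between genotypes, where 49.7% of all genes had none, and in basal cells 79, where 41.1% did. Without Cdkn1b-/- luminal replicate 1, 36 members were called in luminal cells, a fit in which the library that stood apart is the only Cdkn1b-/- one and is assumed to vary like the other groups, and without that library, replicate 2, 0 were called. The amino acid class had 15 of 22 fold changes below 0 in luminal cells (median -0.80) and 16 of 22 in basal cells (median -0.97). The medians over the members were -0.10 and 0.178, and those over all genes -0.01 and 0.075. Slc3a2 had 3623, 3601 and 4435 CPM in wild-type and 1533 and 1446 in Cdkn1b-/- basal libraries, without overlap (-1.27, adjusted p 0.385). Slc50a1, a sugar carrier of internal membranes, went the other way, with 9.57, 12.8 and 11.3 CPM in wild-type and 40.5 and 44.8 in Cdkn1b-/- basal libraries (2.04, adjusted p 0.325).

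At 4 weeks edgeR and DESeq2 called 0 members between genotypes in luminal and in basal cells, where 0% of all genes were called in both. At an unadjusted p under 0.05 there were 5 luminal of 177 members beside 3.6% of all genes and 4 basal members beside 2.57%. Ion carriers were lower in 20 of 21 and sugar carriers in 12 of 13 in Cdkn1b-/- luminal libraries, with medians of -0.59 and -0.30, and no gene of either class was called. The median was -0.28 over the members, near that of the sugar carriers, and -0.10 over all genes. The share of all genes below 0 was not counted. At 9 weeks the genotypes overlapped in Slc7a11 in basal cells, with 26.9 and 12.6 CPM in wild-type and 15.4 and 11.9 in Cdkn1b-/- basal libraries.

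E2 and strain were read in 6 luminal and 6 basal libraries, with both terms in one fit. edgeR called no member for E2 in luminal (0 of 173) or basal cells (0 of 162), where 0% of all genes were called. At an unadjusted p under 0.05 there were 9 luminal members beside 4.06% of all genes and 4 basal members beside 1.9%, and DESeq2 called 3 and 1. Medians per class in luminal cells were near 0, at -0.06 for amino acid, 0.12 for ion, 0.05 for sugar, -0.05 for zinc and -0.09 for nucleotide sugar carriers.

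**Figure D5:**
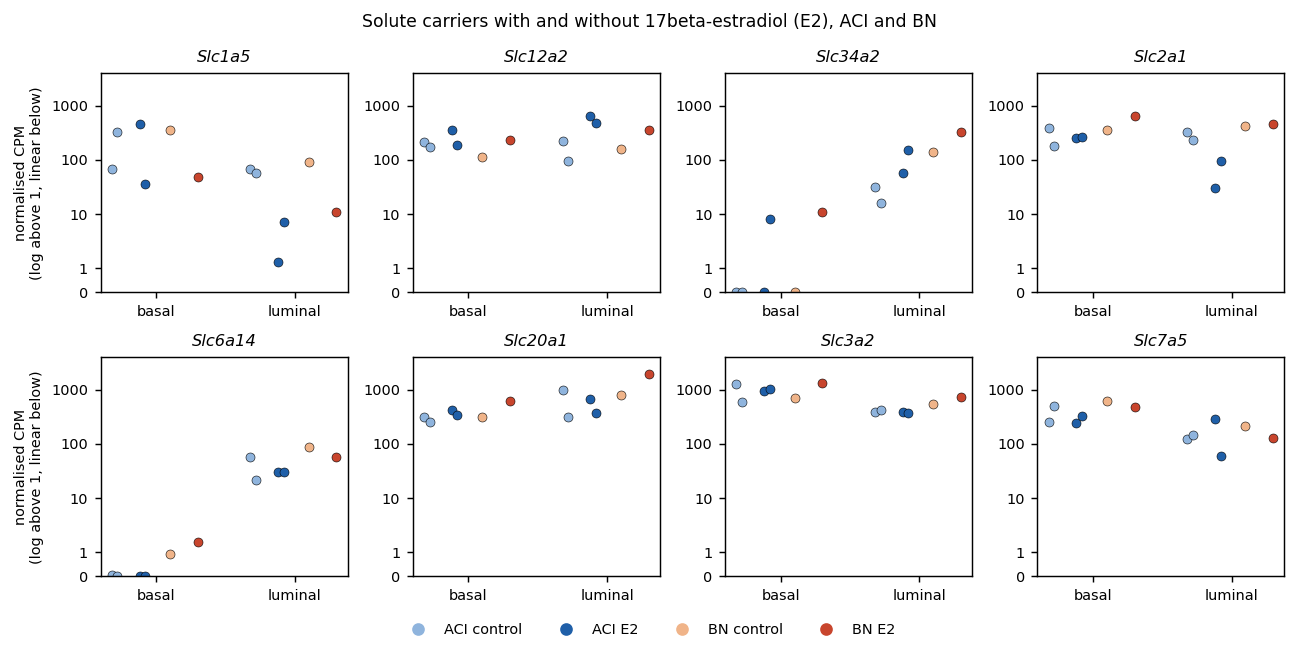
Normalised CPM (log scale above 1, linear below) of 8 members in each basal and luminal library of the E2 experiment, ACI control in light blue, ACI E2 in dark blue, BN control in light orange and BN E2 in red, with 2 ACI and 1 BN library per treatment and cell type. Luminal Slc1a5 is at 58.2 to 90.6 without and 1.30 to 10.7 with E2, and luminal Slc6a14 lies above every basal value.

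Luminal Slc1a5 had 68.7 and 58.2 CPM in ACI control, 1.30 and 7.15 in ACI E2, 90.6 in BN control and 10.7 in BN E2 libraries. All 3 E2 libraries lay below all 3 controls (log2 fold change -3.62, SE 0.84, unadjusted p 0.00515, adjusted p 0.999 by edgeR). The 1.30 came from the first ACI E2 luminal library, the shallowest of the experiment, with 13659389 counts in genes and 74.67% of reads in no gene. It had 0 CPM of Slc12a7, Slc29a1 and Slc25a20, against 43.5, 55.7 and 67.0 in the second ACI E2 luminal library. Whether its low values are levels of expression was not tested. In basal cells the same gene had 66.7 and 324, 455 and 36.6, 360 and 48.5 CPM in that order, and the treatments overlapped. Luminal Slc12a2, the sodium-potassium-chloride cotransporter, had 222 and 95.8 CPM in ACI control, 646 and 474 in ACI E2, 159 in BN control and 364 in BN E2 libraries, again without overlap (1.61, SE 0.44, adjusted p 0.999). Luminal Slc34a2 had 31.9 and 15.8, 56.9 and 155, 138 and 329 CPM, higher with E2 within each strain (1.86, SE 0.55, unadjusted p 0.0154).

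For strain, edgeR called 0 of 176 luminal members (3 by DESeq2) and 0 of 169 basal members (0 by DESeq2), where 0% of all genes were called. At an unadjusted p under 0.05 there were 4 luminal members beside 4.58% of all genes and 0 basal members beside 0.788%. Sugar carriers had 9 of 13 luminal fold changes below 0, ACI over BN, with a median of -0.93, beside -0.13 over the members and 0.03 over all genes. Luminal Slc2a1 had 334 and 234 CPM in ACI control, 30.2 and 96.2 in ACI E2, 428 in BN control and 461 in BN E2 libraries, so that both BN libraries lay above the 4 of ACI (-1.91, SE 0.76, unadjusted p 0.045, adjusted p 0.933). The 30.2 came from the first ACI E2 luminal library, the shallowest of the experiment. Slc34a2 was lower in ACI (-2.09, SE 0.55, unadjusted p 0.00886, adjusted p 0.933). With 1 BN library per treatment, whether E2 acted differently on these carriers in the 2 strains was not tested.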

How the data were processed

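RNA was made into polyA-primed SMARTer v4 libraries and read as single ends of 75 bases. The authors aligned reads to the rat genome rn6 with STAR 2.5.1b and counted them per refGene gene with HTSeq, and the deposited values are whole-number read counts per gene, not normalised. Between 47.1% and 77.0% of reads per library were assigned to no gene and were left out. The kit does not mark strand, so reads of a carrier and of an overlapping antisense gene cannot be told apart, and reads shared by near-identical copies may be split.

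The members and lists were chosen with earlier results of these data known. Membership used counts divided by the library's total in genes. Printed levels are CPM with TMM scaling within each experiment. Tests were fitted over all genes in R 4.3.3 with edgeR 4.0.16 (filterByExpr, TMM, glmQLFTest, Benjamini-Hochberg adjustment, threshold 0.05). The 9-week, 4-week and 6-week libraries were fitted apart with genotype and cell type as groups, the age comparison on all 20 libraries of 4 and 6 weeks, and the E2 experiment with strain and treatment as terms. Scripts were tested on simulated data. Named members were those of a fixed panel of 34 carriers (32 of them members) and, per comparison, all called members up to 10 or else the 5 with the largest fold change in each direction. Slc50a1, Slc5a3, Slc20a2 and members named without values were chosen after their values were seen.

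Substrate classes were assigned from the symbol. Alternatives were RLE size factors, no filter, DESeq2 1.42.0, each library left out, membership at 1 or 20 CPM, the compared groups alone, replicate blocks, and summed progenitor libraries. Same-numbered libraries of 9 weeks deviated together across populations (r 0.618 to 0.911 over 6 wild-type pairs, 0.347 to 0.708 over 6 Cdkn1b-/- pairs) but not across genotypes (-0.397 to -0.117 over 4 pairs). Basal and luminal libraries of 4 and 6 weeks that share a rat's label in their titles were taken as from that rat. Their deviations had r 0.208 to 0.769 over 5 pairs at 4 weeks. At 6 weeks r was -0.0038 to 0.10 over 4 pairs, so no shared deviation was seen there. The Cdkn1b-/- pairs of 6 weeks hold the same value, since libraries in a group of 2 deviate as mirror images. No pair of the 28 replicate pairs differed by as little as sampling noise. The 4 ChIP libraries, on rn6, and the columns of no sample were not used here. Promoter sequences are from RefSeq, GRCr8.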

Additional observations from a re-analysis of the deposited data

Results flagged for a closer look

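Among the 4 luminal progenitor libraries of one genotype at 9 weeks, 152 groups of named members were screened for 1 library far from the other 3 (Dixon's ratio at the 95% level). Chance gives about 1 in 20, and the 7 of 152 that passed are no more than that share. The 4 libraries are also not separate draws, since same-numbered ones deviated together. Of the 7, 5 were the second Cdkn1b-/- Cd49b+ library. It had 30.9 CPM of Slc12a4 against 6.30 to 7.31 in the others, 14 of Slc22a18 against 8.28 to 9.12, 6.66 of Slc6a4 against 0.133 to 0.701, 2.13 of Slc7a3 against 0.279 to 0.567 and 4.49 of Slc7a6 against 3.55 to 3.70. Slc12a4, Slc6a4 and Slc7a3 were higher in basal than luminal cells at 4 weeks, and this library had the highest sum of basal markers among the progenitor libraries. The part of those markers was not tested. In wild-type progenitors the second Cd49b+ library had 4.67 CPM of Slc4a11 against 1.37 to 1.88, and the first PNA+ library had 8.12 CPM of Slc4a7 against 12.4 to 13.0.

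In luminal cells the genotype effect differed between 6 and 4 weeks, by the test of that difference, in 3 members: Slc35a1 (3.28 on the log2 scale, SE 0.63, edgeR adjusted p 0.0174), Slc6a9 (-6.08, SE 1.34, 0.0323) and Slc7a1 (-2.59, SE 0.62, 0.0487). At 9 weeks the fit without a block called no difference in the genotype effect between progenitors and basal cells in Slc12a8 or Slc1a5 (edgeR adjusted p 0.375 and 0.479). Both were called only with the number within genotype as a block, chosen after the data were seen. There Slc12a8 had -3.32 (SE 0.53, edgeR adjusted p 0.0331) and Slc1a5 -2.52 (SE 0.35, 0.015). These libraries chose the members, so the values are a description.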

How the results depend on the processing

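No result turned direction under any alternative run. The counts below, and those of most alternative runs given above, stand without the share of all genes called. No change in them is thus read as a trait of the carriers. Counts of called members moved by over 1.5 times as follows. DESeq2 called 26 between genotypes in luminal progenitors, 2 in basal and 3 in mature luminal cells at 9 weeks, 32 between progenitors and mature cells, 20 luminal and 8 basal between genotypes at 6 weeks, 46 basal and 38 luminal between ages, 28 between cell types at 6 weeks, 28 in the E2 experiment, 3 luminal and 1 basal for E2, 3 luminal for strain and 20 for the change of the genotype effect with age. Membership at 20 CPM gave 7 between genotypes in progenitors, 38 between basal and mature cells, 7 luminal between ages and 37 between cell types at 4 weeks. Summed progenitor libraries gave 0 between genotypes, 0 between progenitors and mature cells and 47 between basal cells and progenitors. The compared groups alone gave 0 between genotypes in basal cells at 9 weeks, 35 between basal and mature cells, 26 between progenitors and mature cells and 41 luminal between ages. Basal cells at 9 weeks gave 0 between genotypes with RLE and 0 without a filter. No filter gave 9 between cell types at 6 weeks and 9 in the E2 experiment. With both ages in one fit, chosen after seeing the data, genotypes differed in 17 luminal and 9 basal members at 6 weeks.

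With the titles' number as a replicate block, 19 members were called between genotypes in progenitors, 2 in basal and 2 in mature cells, and 19 between progenitors and mature cells. Crossed numbers, added after seeing the data, gave 36 in progenitors and 3 in mature cells. The number within genotype gave 103 between basal and mature cells and 54 between progenitors and mature cells, and the rat as a block gave 2 between cell types at 6 weeks. The number within genotype gave 2 where the genotype effect of progenitors was set against that of basal cells. The block changed no other count by over 1.5 times.

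With each library left out, counts ran from 6 to 31 between genotypes in progenitors, 0 to 1 in basal cells at 9 weeks, 35 to 43 between basal and mature cells, 40 to 75 between basal cells and progenitors, 0 to 10 between progenitors and mature cells, 44 to 51 between cell types at 4 weeks and 0 to 5 at 6 weeks, 3 to 11 in the E2 experiment, 0 to 36 between luminal genotypes at 6 weeks, 14 to 29 basal and 0 to 16 luminal between ages, and 0 to 59 for the change of the genotype effect with age. All others stayed at 0. The causes were not tested. With 1 library left in a group, its spread was assumed to be that of the others. Of 1630 settings over 142 values of single members, 1243 kept direction and side of the threshold and 387 kept direction and lost the call.

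Groups of 2 or 3 libraries leave few degrees of freedom, 3 in each E2 and strain fit and 5 at 6 weeks, and the 6-week libraries were the shallowest, so that a count of 0 there does not show that carriers did not differ. At 9 weeks the same libraries chose the members.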
